A study of Homo sapiens with 24 samples.

Results

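The genes described here are 8 that encode the machinery of the interferon-induced ubiquitin-like modifiers FAT10 and ISG15. They were taken by name from the 26475 gene symbols counted in the series: UBD and ISG15 (the modifiers), UBA6 and UBA7 (activating enzymes), UBE2L6 (a conjugating enzyme), HERC5 and HERC6 (ligases), and USP18 (an isopeptidase). The RNA came from HepG2, an established human liver cancer cell line, in 24 libraries of 8 groups with 3 replicates each. Cells received only the solvent DMSO, 50 nM of ABBV-075, 50 nM of ABBV-744 or 500 nM of ABBV-744, and in the other 4 groups interferon gamma (IFNg), alone or on top of one of these 3 inhibitor treatments. Both compounds inhibit the BET proteins, which bind acetylated histones through a pair of bromodomains: ABBV-075 acts on both domains and ABBV-744 selectively on the second. The methods of the study give 12 h for ABBV-075 and list DMSO among treatments of 24 h, so the time and the inhibitor cannot be told apart in that comparison. For the ABBV-744 and IFNg groups no treatment time, and for IFNg no dose, is given in the sources used here. The study calls its DMSO and ABBV-075 libraries independent triplicates of the 1 cell line, and where nothing says that replicates came from separate cultures, the p-values measure only the spread between these samples.

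FAT10 (the product of UBD) and ISG15 are small proteins that cells attach to other proteins much as they attach ubiquitin, and interferons are known to induce both. UBA6 activates FAT10, and marked proteins are handed to the proteasome. ISG15 is activated by UBA7, passed to UBE2L6, joined to newly made proteins chiefly by HERC5 in human cells, and removed by USP18, which also restrains signalling from the type I interferon receptor. HERC6 is a close relative of HERC5 and takes its place in mice.

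On GRCh38 the modifier genes lie apart, UBD on the minus strand at chr6:29555515-29559732 and ISG15 on the plus strand at chr1:1001138-1014540. UBA6 spans chr4:67612652-67701155 and UBA7 chr3:49805209-49813953, both on the minus strand, and UBE2L6 lies at chr11:57551656-57568284 on the minus strand. HERC5 (chr4:88457119-88506163) and HERC6 (chr4:88378739-88443097) are neighbours on the plus strand, and USP18 is at chr22:18150118-18177397 on the plus strand. Reads were counted over the exons of each gene on its own strand.

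The stretches before the start sites of 4 of these genes are shown because they differ in their matches to the motifs searched, listed below. They are 250 bases each, 5′ to 3′ on the strand of the gene, taken from RefSeq on GRCh38.p14, with matches in capitals. Of the 8 genes, 6 had an entry, and UBE2L6 had 2 of the 7 entries, of which the one at its canonical transcript is shown. ISG15 lies on the plus strand and its stretch is at chr1:1013247-1013496. HERC5 lies on the plus strand at chr4:88456869-88457118, UBD on the minus strand at chr6:29559733-29559982, and UBE2L6 on the minus strand at chr11:57567673-57567922.
ISG15: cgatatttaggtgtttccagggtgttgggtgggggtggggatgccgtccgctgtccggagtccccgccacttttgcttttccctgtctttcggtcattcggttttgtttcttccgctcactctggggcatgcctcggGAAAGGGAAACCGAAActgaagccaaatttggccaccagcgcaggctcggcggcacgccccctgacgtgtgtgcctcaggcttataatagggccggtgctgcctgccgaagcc
HERC5: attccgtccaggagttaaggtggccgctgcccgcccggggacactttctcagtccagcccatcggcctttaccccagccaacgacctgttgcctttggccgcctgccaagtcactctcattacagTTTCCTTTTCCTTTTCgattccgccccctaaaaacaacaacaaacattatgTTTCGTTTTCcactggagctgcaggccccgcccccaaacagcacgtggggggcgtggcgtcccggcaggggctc
UBD: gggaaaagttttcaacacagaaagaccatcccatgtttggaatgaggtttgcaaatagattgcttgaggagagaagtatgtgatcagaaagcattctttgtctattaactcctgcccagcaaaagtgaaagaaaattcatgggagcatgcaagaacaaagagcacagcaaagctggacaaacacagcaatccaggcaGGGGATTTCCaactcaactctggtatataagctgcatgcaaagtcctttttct
UBE2L6: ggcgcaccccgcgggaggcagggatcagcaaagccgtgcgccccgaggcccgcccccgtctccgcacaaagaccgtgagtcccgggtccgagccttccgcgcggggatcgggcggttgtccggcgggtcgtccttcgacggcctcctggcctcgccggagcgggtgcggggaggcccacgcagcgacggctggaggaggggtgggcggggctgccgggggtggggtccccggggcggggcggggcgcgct

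The motifs searched on both strands were the core of the interferon-stimulated response element (GAAA, any 2 bases, GAAA), the gamma-activated sequence (TTCNNNGAA), a kappa-B site (GGG, any 2 bases, TTTCC) and the TATA box (TATAAA). ISG15 held 2 overlapping matches to the response element, from 113 to 104 and from 107 to 98 bases before its start. HERC5 held 3 matches to the same element on the opposite strand, of which the pair from 125 to 116 and from 119 to 110 bases overlapped and the other lay 74 to 65 bases before the start. UBD held a single kappa-B match, 53 to 44 bases before its start. UBE2L6, UBA6 and HERC6 held no match to any of the motifs in these windows. Among all 35116 promoters of the same table, 3.02% held the response element, 6.57% the gamma-activated sequence, 1.73% the kappa-B site and 10.7% the TATA box. A match is a run of letters and not a measured site, and no binding was measured in these libraries.

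Between 2978982 and 4304103 reads were counted on genes per library, with a median of 3462418.5, and 11676 genes passed the filter on low counts. All 7 hepatocyte lineage markers were present in these HepG2 libraries, with a summed level of 16284 to 24354 on the counts-per-million (CPM) scale. Of 5 leukocyte markers 3 were at 0 in every library, and the summed levels were 0.241 to 6.55 CPM for the leukocyte markers, 1.15 to 7.33 CPM for 3 fibroblast markers (1 at 0 throughout) and 0 to 2.15 CPM for 3 endothelial markers. Of these, CD14 and PDGFRB were abundant enough to test; neither passed with IFNg. CD14 fell with ABBV-075 (log2 change -3.04) and with each inhibitor in cells given IFNg (-2.29, -2.49 and -2.27), and PDGFRB fell in all 6 inhibitor comparisons, by -1.94 to -0.94. Among the 7 hepatocyte markers none passed with IFNg, 1 rose and 2 fell with ABBV-075, 3 rose with ABBV-744 at either dose, and 2 rose and 2 fell with each inhibitor in IFNg. The part of these markers in the results was not tested. The labels were checked with IRF1, GBP1 and PSMB9, each of which rose with IFNg, and with HEXIM1 and MYC. HEXIM1 rose and MYC fell with ABBV-075 and with ABBV-744 at 500 nM, and neither passed the test with ABBV-744 at 50 nM. Libraries differed in genes of low GC content: the decile of genes below 38.2% GC had a median log2 CPM deviation (from the mean of all libraries) of 0.256 to 0.636 in the 9 libraries of IFNg with an inhibitor and of -0.46 to -0.189 in the DMSO and IFNg libraries. In the ABBV-744 libraries without IFNg it was -0.905 to -0.245. The ABBV-075 libraries differed most among themselves, at 0.616, 0.293 and -0.205.

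**Figure D1:**
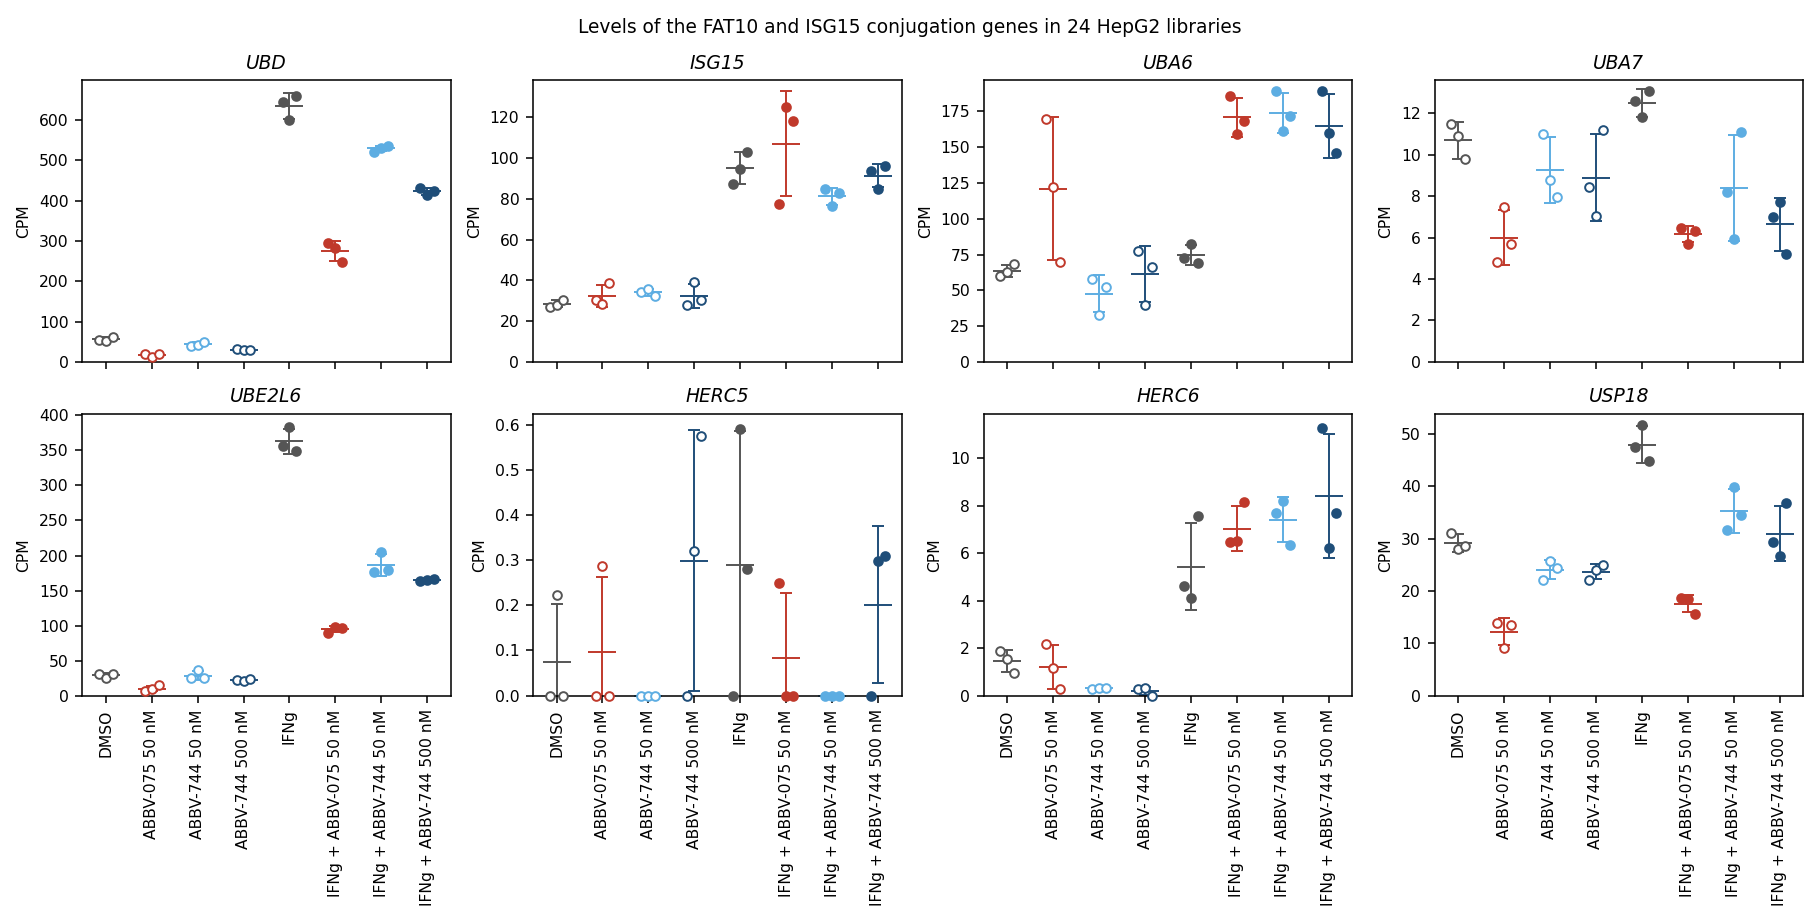
Level of each gene in CPM (linear axes from 0) in the 24 libraries, by group. Points are libraries, filled with IFNg and open without, and bars are the mean and SD of 3 libraries; UBD and UBE2L6 are at least 52.6 and 25.8 CPM in DMSO and at least 599.6 and 349.6 CPM with IFNg, and HERC5 stays below 1 CPM throughout.

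Without inhibitors, IFNg raised both modifiers, the ISG15 conjugating enzyme, the isopeptidase and HERC6, while neither activating enzyme passed the test. UBD rose 11.3-fold and UBE2L6 12.6-fold, ISG15 3.34-fold, HERC6 3.7-fold and USP18 1.64-fold. Of the 7 genes tested 5 rose and none fell, where 2.08% of all genes tested rose and 0.188% fell (edgeR's quasi-likelihood test, Benjamini-Hochberg adjusted p of at most 0.05). With the study's second threshold, a log2 fold change of at least 1.5, 4 of them rose, against 0.831% of all genes.

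UBD, which encodes FAT10, was at 53.9, 52.6 and 62.5 CPM in the DMSO libraries and at 646, 599.6 and 659 CPM in the IFNg libraries. The groups lay far apart relative to their spread, with means of 56.3 ± 5.37 and 635 ± 31.4 CPM (SD, n = 3). The log2 fold change was 3.49 (SE 0.11, adjusted p = 7.35e-21). UBE2L6, the conjugating enzyme, stood at 30.6, 25.8 and 30.5 CPM without and at 357, 383 and 349.6 CPM with IFNg. It too had no overlap, and its change was close to that of UBD, 3.65 on the log2 scale (SE 0.14, adjusted p = 1.76e-18). ISG15 was measured at 27.1, 27.8 and 30.3 CPM in DMSO and at 87.3, 94.5 and 103 CPM with IFNg, a log2 fold change of 1.74 (SE 0.15, adjusted p = 4.95e-10).

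USP18, the enzyme that takes ISG15 off its targets, moved from 31.1, 28 and 28.6 CPM to 47.5, 51.7 and 44.8 CPM. The groups did not overlap, as was also so for UBA6 and UBA7, which did not pass the test. The share of all genes without overlap is not given for this comparison. The change of USP18 was smaller than that of the modifiers, at 0.72 on the log2 scale (SE 0.13, adjusted p = 0.000822). USP18 has near-identical relatives on chromosome 22, and reads that align to several places were left out of the counts, so its level is uncertain. HERC6 gave 7, 7 and 4 counts in DMSO and 17, 14 and 27 counts with IFNg, a log2 fold change of 1.89 (SE 0.39, adjusted p = 0.00272). That call rested on few reads: without IFNg replicate 3 the log2 fold change was 1.58 and the adjusted p 0.058.

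The activating enzymes moved little. UBA7 was at 11.5, 10.9 and 9.78 CPM in DMSO and at 12.6, 11.8 and 13.1 CPM with IFNg, a log2 difference of 0.22 with a 95% interval of -0.20 to 0.64 (adjusted p = 0.805). UBA6 stood at 60, 62.6 and 68.4 CPM and at 72.3, 82.4 and 69.4 CPM, a log2 difference of 0.23 with an interval of -0.22 to 0.67 (adjusted p = 0.82). HERC5, the main human ISG15 ligase, gave 0 to 2 counts in every library of all 8 groups. It did not pass the filter and was not tested, and at 3 counts or fewer a difference was not detectable at this depth.

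Per kilobase of the canonical transcript, UBD had the highest level of the 8 genes in DMSO, at 63 ± 6.01 CPM per kilobase (SD, n = 3), before ISG15 at 44.5 ± 2.66 and UBE2L6 at 23.7 ± 2.27. USP18 followed at 15.7, UBA6 at 6.68, UBA7 at 3.25 and HERC6 at 0.387 CPM per kilobase. With IFNg, UBE2L6 passed ISG15, at 298 ± 14.4 against 149 ± 12.5 CPM per kilobase, behind UBD at 710.4 ± 35.1. In both groups each gene lay above the next in all libraries. With IFNg and ABBV-075 the order of the middle pair turned, with ISG15 at 168 ± 40.5 and UBE2L6 at 77.8 ± 3.7 CPM per kilobase, and the libraries of the pair did not overlap. With IFNg and ABBV-744 at 500 nM, ISG15 at 144 and UBE2L6 at 135 CPM per kilobase overlapped.

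In the main fit the inhibitors alone lowered UBD at every dose tested, though for ABBV-744 at 50 nM not in all fits. ABBV-075 lowered more of the genes. With ABBV-075, UBD fell 3.3-fold, UBE2L6 2.87-fold, USP18 2.39-fold and UBA7 1.79-fold, while UBA6 rose 1.9-fold. These were 4 of 7 genes lower and 1 higher, where 22.3% of all genes tested fell and 25% rose. In bulk RNA, fewer cells that make a transcript and less RNA per cell cannot be told apart.

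UBD was at 19.1, 13.2 and 18.6 CPM with ABBV-075, below all 3 DMSO libraries, a log2 fold change of -1.72 (SE 0.13, adjusted p = 9.83e-12). UBE2L6 was at 6.76, 9.19 and 14.7 CPM, also below every DMSO library, with a change of -1.52 (SE 0.18, adjusted p = 1.11e-07). USP18 dropped to 13.8, 9.19 and 13.5 CPM, a change of -1.26 (SE 0.16, adjusted p = 3.02e-07). UBA7, which activates ISG15, was at 4.83, 7.47 and 5.71 CPM and changed by -0.84 (SE 0.23, adjusted p = 0.00377). ISG15 itself stood at 30.2, 28.4 and 38.5 CPM and overlapped the DMSO libraries. Its log2 difference was 0.18, with an interval of -0.15 to 0.52. After the correction for GC content described below, the difference was 0.29 and passed the test (adjusted p = 0.048). HERC6 had 9, 4 and 1 counts and an interval of -1.26 to 0.89.

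UBA6 was the exception in direction. Its levels were 169.8, 122 and 70.1 CPM with ABBV-075, all above DMSO but spread more widely than those of any other group, and its log2 fold change was 0.93 (SE 0.21, adjusted p = 0.000729). Without ABBV-075 replicate 1 the change was 0.60 (adjusted p = 0.0174). UBA6 has a transcript of 9540 bases with 35.6% GC, within the decile of genes lowest in GC, and its level moved with that decile: the library at 169.8 CPM had the highest median deviation of the 3 and the library at 70.1 CPM the lowest. After a correction for GC content, added after seeing the data, the change was 0.36 (SE 0.10, adjusted p = 0.00303). The part of the GC trend in the result was not tested otherwise.

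ABBV-744 alone changed few of the genes. At 50 nM, 1 of 7 fell and none rose, where 6.66% of all genes fell and 6.12% rose: UBD was at 40, 41.2 and 50.2 CPM, a log2 fold change of -0.37 (SE 0.11, adjusted p = 0.0337). UBA6 was at 57.6, 33 and 52.1 CPM, a log2 difference of -0.42 (adjusted p = 0.217) that was -0.04 after the GC correction. The call for UBD did not hold without DMSO replicate 2, DMSO replicate 3, ABBV-744 replicate 1 or ABBV-744 replicate 2, with adjusted p of 0.0562, 0.165, 0.111 and 0.168, nor after the GC correction (-0.24, adjusted p = 0.144). With only the groups compared in the fit, UBD was also not called (-0.35, adjusted p = 0.0537). UBE2L6 differed by -0.02 on the log2 scale with an interval of -0.34 to 0.30, and USP18 by -0.28 (-0.58 to 0.02). ISG15 was at 34.3, 35.5 and 32.4 CPM, above the DMSO libraries, but its difference of 0.26 did not pass the test (adjusted p = 0.281).

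At 500 nM, UBD and HERC6 fell, 2 of 7 genes, where 5.64% of all genes fell, and none rose, where 5.74% did. UBD was at 31.1, 29.2 and 30.2 CPM, a narrow range below every DMSO library, with a log2 fold change of -0.90 (SE 0.12, adjusted p = 5.94e-06). HERC6 had 1, 1 and 0 counts at 500 nM and 1 count in each library at 50 nM, beside 18 counts in all in DMSO. By summed counts the DMSO level was 7.27 times that at 500 nM, with a 95% counting interval of 1.74 to 64.6. It was 4.67 times that at 50 nM, with an interval of 1.36 to 24.8. The edgeR test gave an adjusted p of 0.0296 at 500 nM and 0.0572 at 50 nM, and DESeq2 gave 0.0797 at 500 nM. The call at 500 nM was lost in 5 of the 6 fits that left out a library, all but the one without DMSO replicate 3, with adjusted p of up to 0.128. UBE2L6 was at 21.8, 21.5 and 23.3 CPM, below DMSO in all libraries, with a log2 difference of -0.38 that did not pass the test (adjusted p = 0.129) and was -0.48 after the GC correction (adjusted p = 0.0131).

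**Figure D2:**
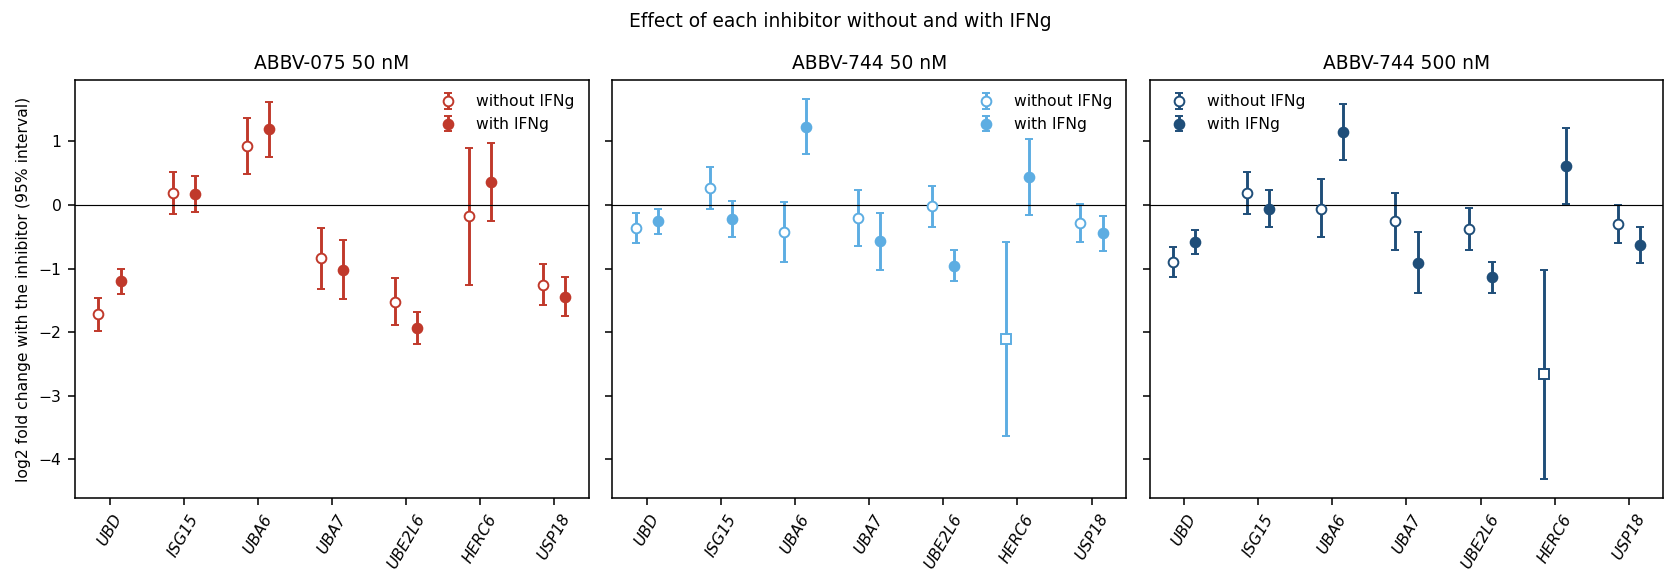
Log2 fold change of 7 genes with each inhibitor, without IFNg (open, against DMSO) and with IFNg (filled, against IFNg alone), with 95% intervals. Squares mark HERC6 where the inhibitor group had 1 count or fewer in every library; UBD lies below 0 in all 6 comparisons, from -1.72 to -0.26, and UBE2L6 lies at -0.02 with ABBV-744 at 50 nM alone and at -0.96 with IFNg.

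In the main fit, each of the 3 inhibitor treatments lowered UBD, UBE2L6, USP18 and UBA7 and raised UBA6 in cells given IFNg. The 4 falls stood beside 27.3% of all genes with ABBV-075, 22.4% with ABBV-744 at 50 nM and 20.2% with ABBV-744 at 500 nM, and the single rise beside 26.2%, 24.2% and 21.1%. These comparisons share the IFNg libraries. Neither ISG15 nor HERC6 passed the test in any of them. For ABBV-744 at 50 nM, only the call for UBE2L6 held in every fit.

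UBD was at 296, 283 and 247 CPM with IFNg and ABBV-075, which was 43.4% of its level with IFNg alone, a log2 fold change of -1.20 (SE 0.09, adjusted p = 2.41e-11). With ABBV-744 it was at 522, 532 and 535 CPM at 50 nM and at 432, 413 and 425 CPM at 500 nM. No library of the 3 inhibitor groups reached the lowest IFNg library, and the levels of the inhibitor groups did not overlap each other. The changes were -0.26 (SE 0.09, adjusted p = 0.0202) at 50 nM and -0.58 (SE 0.09, adjusted p = 1.61e-05) at 500 nM. The smaller one did not pass without IFNg replicate 3 (adjusted p = 0.0539), without replicate 1 of IFNg with ABBV-744 (adjusted p = 0.061) or when scaled by library size alone (-0.19, adjusted p = 0.112), and it was -0.46 after the GC correction (adjusted p = 4.85e-06) but -0.09 after a correction for transcript length (adjusted p = 0.446).

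UBE2L6 showed the largest falls. It was at 89.7, 98.2 and 96.7 CPM with IFNg and ABBV-075, 26.1% of the level with IFNg alone, a log2 fold change of -1.94 (SE 0.12, adjusted p = 3.86e-13). At 50 nM of ABBV-744 its levels were 177, 205 and 179.9 CPM, and at 500 nM they were 163, 165 and 166 CPM. All 9 libraries lay below the 3 IFNg libraries, with changes of -0.96 (SE 0.12, adjusted p = 6.66e-07) and -1.14 (SE 0.12, adjusted p = 5.07e-08) for ABBV-744.

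USP18 was at 18.6, 18.5 and 15.7 CPM with IFNg and ABBV-075, a log2 fold change of -1.44 (SE 0.15, adjusted p = 3.95e-09), which put it below its level in DMSO. For ABBV-744 its changes were -0.44 at 50 nM (adjusted p = 0.00758) and -0.63 at 500 nM (adjusted p = 0.000593). The change at 50 nM did not pass without replicate 1 of IFNg with ABBV-744 (adjusted p = 0.054) or after the GC or length correction (-0.25, adjusted p = 0.108, and -0.31, adjusted p = 0.0525). UBA7 was at 6.46, 5.71 and 6.33 CPM with IFNg and ABBV-075, with a change of -1.02 (SE 0.23, adjusted p = 0.000497). With ABBV-744 UBA7 changed by -0.57 at 50 nM (adjusted p = 0.0311) and by -0.91 at 500 nM (adjusted p = 0.00248). The call for UBA7 at 50 nM was lost without IFNg replicate 1 or 3 and without replicate 1 or 2 of IFNg with ABBV-744, with adjusted p of 0.0535 to 0.177, and after the GC correction (-0.23, adjusted p = 0.46).

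ISG15 stayed near its IFNg level. It was at 77.3, 125 and 118 CPM with IFNg and ABBV-075, a wide spread around the IFNg libraries, and differed by 0.17 on the log2 scale with an interval of -0.11 to 0.45. Without replicate 1 of IFNg with ABBV-075, the library at 77.3 CPM, the difference was 0.36 and passed the test (adjusted p = 0.0199), and after the GC correction it was 0.23 (adjusted p = 0.0299). With ABBV-744 the differences were -0.22 (-0.51 to 0.06) at 50 nM and -0.06 (-0.34 to 0.23) at 500 nM. These intervals exclude the falls seen for UBE2L6 in the same libraries. HERC6 had 26, 24 and 27 counts with ABBV-075, 32, 29 and 23 with ABBV-744 at 50 nM and 34, 21 and 25 at 500 nM, and its log2 differences from IFNg were 0.36, 0.44 and 0.61. Without IFNg replicate 3 the last of these was 0.90 and passed the test (adjusted p = 0.0388).

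UBA6 was at 186, 159 and 168 CPM with IFNg and ABBV-075, at 189, 161 and 172 CPM with ABBV-744 at 50 nM, and at 189, 159.9 and 146 CPM at 500 nM. All 9 libraries exceeded the IFNg libraries, by 1.19, 1.23 and 1.14 on the log2 scale (adjusted p = 2.71e-05, 3.19e-05 and 0.000101). The same 9 libraries carried the shift of low-GC genes given above. After the GC correction the changes of UBA6 were 0.41 (adjusted p = 0.000641), 0.23 (adjusted p = 0.0774) and 0.29 (adjusted p = 0.0233), so the call at 50 nM of ABBV-744 was lost.

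**Figure D3:**
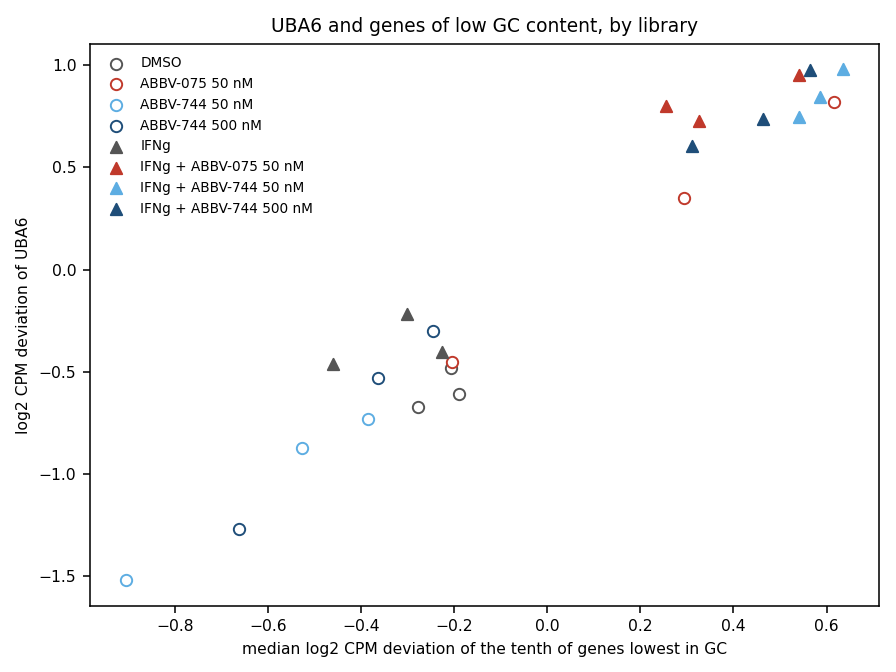
Log2 CPM deviation of UBA6 from its mean over all libraries (vertical) against the median log2 CPM deviation of the decile of genes lowest in GC content (horizontal), 1 point per library, triangles with IFNg and circles without. The 9 libraries of IFNg with an inhibitor lie at 0.256 to 0.636 on the horizontal axis and at 0.605 to 0.979 on the vertical axis, and the ABBV-075 libraries are spread from -0.205 to 0.616 and from -0.45 to 0.821.

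The response to IFNg was also measured against each inhibitor alone. With ABBV-075 present, UBD rose 16.1-fold, UBE2L6 9.43-fold, ISG15 3.3-fold and HERC6 5.39-fold, 4 of 7 genes, where 1.85% of all genes rose, and none fell, where 1.16% did. USP18 did not pass, with a log2 difference of 0.53 (adjusted p = 0.0977), and UBA6 was called only in some fits: its difference of 0.49 (adjusted p = 0.249) became 0.82 without ABBV-075 replicate 1 (adjusted p = 0.00702) and 0.39 after the GC correction (adjusted p = 0.00686). USP18 passed after that correction too, at 0.62 (adjusted p = 0.0214).

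With ABBV-744 present, UBD, UBE2L6, ISG15, HERC6, USP18 and UBA6 rose with IFNg at either dose, 6 of 7 genes. Of all genes, 29.1% rose and 28.7% fell at 50 nM, and 21.8% rose and 18% fell at 500 nM. UBD rose 12.1-fold and 14-fold, UBE2L6 6.56-fold and 7.4-fold, and ISG15 2.39-fold and 2.83-fold. USP18 changed by 0.55 (adjusted p = 0.00212) and 0.38 (adjusted p = 0.0406) on the log2 scale, and the second of these was lost in 5 of the 6 fits that left out a library, all but the one without replicate 2 of IFNg with ABBV-744, with adjusted p of up to 0.315. HERC6 rose from 3 counts in all to 84 at 50 nM, a ratio of 24 with a counting interval of 7.93 to 119, and from 2 to 80 at 500 nM, a ratio of 41.7 with an interval of 11.2 to 350.

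**Figure D4:**
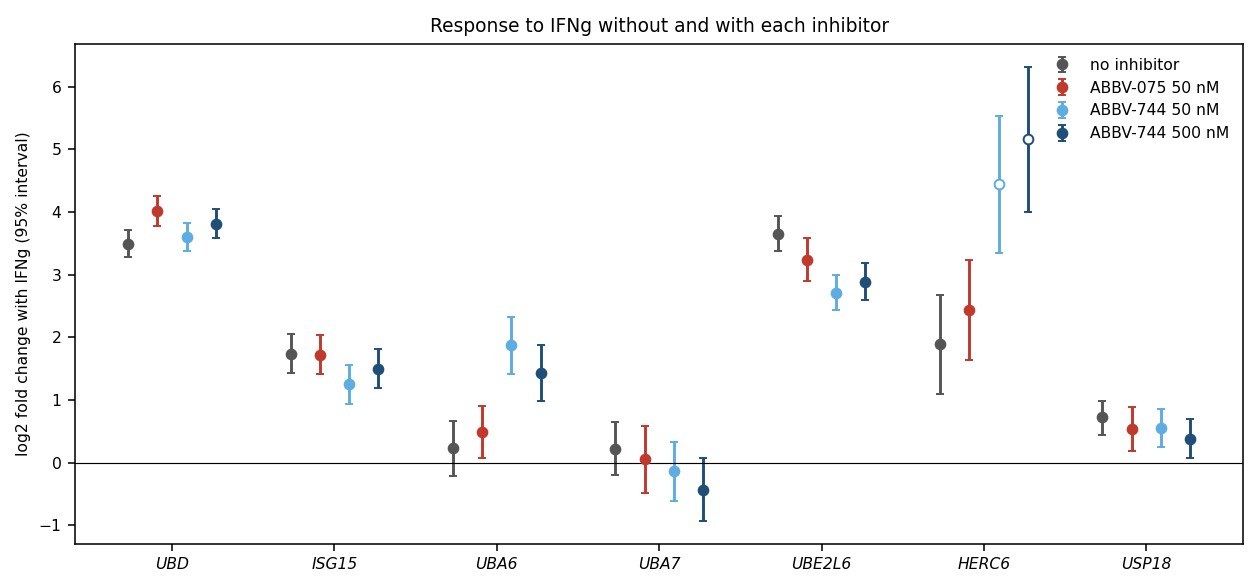
Log2 fold change with IFNg of 7 genes without an inhibitor and with each inhibitor, with 95% intervals. Open circles mark HERC6 against ABBV-744 groups of 1 count or fewer per library, where the fitted value depends on the prior count; UBD lies between 3.49 and 4.01 in all 4 settings and UBE2L6 between 2.71 and 3.65.

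Whether the response to IFNg differed with an inhibitor was tested as an interaction. With ABBV-075 no gene of the 7 passed, where 0.0428% of all genes did. The interactions were 0.52 for UBD (interval 0.20 to 0.84, adjusted p = 0.323), -0.41 for UBE2L6 (-0.88 to 0.05) and -0.02 for ISG15 (-0.45 to 0.41). By the unadjusted test only UBD had an interval that excluded 0. With ABBV-744, the response of UBE2L6 was smaller, by -0.94 at 50 nM (SE 0.20, adjusted p = 0.00041) and -0.76 at 500 nM (SE 0.20, adjusted p = 0.006).

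In the main fit UBA6 and HERC6 had larger responses to IFNg with ABBV-744. The interactions of HERC6 were 2.55 at 50 nM and 3.27 at 500 nM, and rest on ABBV-744 groups of 3 and 2 counts in all. Those of UBA6 did not pass after the GC correction. The 2 higher and 1 lower of 7 genes stood beside 24% and 22.4% of all genes at 50 nM, and beside 15.9% and 12.5% at 500 nM. For UBA6 the interactions were 1.65 (adjusted p = 0.000138) and 1.20 (adjusted p = 0.00471). After the GC correction they were 0.26 (adjusted p = 0.256) and 0.16 (adjusted p = 0.559) for UBA6, and -0.48 (adjusted p = 0.0279) and -0.39 (adjusted p = 0.113) for UBE2L6. ISG15 at 50 nM had an interaction of -0.49 (adjusted p = 0.0619), which passed without IFNg replicate 1 (adjusted p = 0.0431) and was 0.08 after the GC correction.

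At the shared dose of 50 nM the pair of compounds was compared without and with IFNg, and p-values were adjusted over all genes in both settings together. No treatment time is given for ABBV-744, so compound and time cannot be told apart. Without IFNg the groups also differed in the shift of low-GC genes given above. UBD was lower with ABBV-075 in both: 38.8% of its ABBV-744 level without IFNg (log2 difference -1.36, SE 0.13, adjusted p = 6.53e-09) and 52% with IFNg (-0.94, SE 0.09, adjusted p = 9.4e-09). UBE2L6 was at 35.8% (SE of the log2 difference 0.19, adjusted p = 3.96e-07) and 50.6% (-0.98, adjusted p = 5.28e-07). USP18 was at 50.5% (-0.98, adjusted p = 3.46e-05) and 49.8% (log2 interval -1.30 to -0.69, adjusted p = 5.92e-06). The libraries of the compounds did not overlap for these 3 genes in either setting, which held for 50.7% of all genes without IFNg and 43.4% with IFNg.

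Adjusted within each setting, 4 of 7 genes were lower with ABBV-075 and 2 higher without IFNg, where 24.8% and 26.8% of all genes were, and 3 were lower and 1 higher with IFNg, where 15.3% and 10.8% were. UBA7 without IFNg differed by -0.64 (adjusted p over both settings = 0.04), and without ABBV-075 replicate 1 or 3 or ABBV-744 replicate 1 it did not pass (adjusted p = 0.16, 0.0504 and 0.131). It was -0.28 after the GC correction (adjusted p = 0.396), and it did not pass by DESeq2 either (adjusted p = 0.0994). UBA6 was higher by 1.35 without IFNg (adjusted p over both settings = 2.18e-05; 0.40 after the GC correction) and differed by -0.03 with IFNg, with an interval of -0.44 to 0.38. ISG15 differed by -0.08 without IFNg (-0.41 to 0.26) and was higher by 0.39 with IFNg (adjusted p over both settings = 0.0238). This last call was lost in 5 of the 6 fits that left out a library, all but the one without replicate 1 of IFNg with ABBV-075, with adjusted p of up to 0.241, and after the GC correction (0.14). HERC6 gave 14 counts with ABBV-075 and 3 with ABBV-744, a ratio of 4.13 with a counting interval of 1.15 to 22.4. By the edgeR test its adjusted p was 0.0399 within the setting and 0.0502 over both. The call for HERC6 within the setting was lost in 5 of the 6 fits that left out a library, all but the one without ABBV-075 replicate 3, with adjusted p of up to 0.341.

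The doses of ABBV-744 were compared with each other as well. By the edgeR test no gene of the 7 passed between 500 and 50 nM, where 0.0771% of all genes did without IFNg and 0.0171% with IFNg. UBD was lower at 500 nM in all libraries of both settings, by -0.53 on the log2 scale without IFNg (interval -0.79 to -0.28, adjusted p = 0.0894) and by -0.32 with IFNg (-0.51 to -0.13, adjusted p = 0.248). UBD passed without IFNg after the GC correction (-0.60, adjusted p = 0.00711), and with IFNg by DESeq2 (-0.32, adjusted p = 0.029) and with only the groups compared in the fit (-0.29, adjusted p = 0.0267). UBE2L6 differed by -0.36 (-0.70 to -0.02) and -0.19 (-0.43 to 0.06). ABBV-075 at 50 nM and ABBV-744 at 500 nM differ in dose, and beside DMSO their UBD levels were 30.1% and 53.5%.

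The other genes of these and neighbouring pathways were read from lists of 51 genes, of which 49 were tested. With IFNg alone 2 rose, 4.08% of the list beside 2.08% of all genes, and none fell. TRIM25, a ligase for ISG15, went from 142, 123 and 113 CPM to 183, 203 and 204 CPM (log2 fold change 0.64, SE 0.09, adjusted p = 1.6e-05). NUB1, which binds FAT10 and hastens its breakdown, went from 12.6, 21.1 and 20 CPM to 39.8, 29.5 and 33.6 CPM (0.93, SE 0.17, adjusted p = 0.000414). In both the groups did not overlap, as was also so for UBA6 and UBA7, which did not pass. NUB1 was followed into the other comparisons because of this rise. None of the 8 other activating enzymes, the 11 other conjugating enzymes tested, the 4 other HERC genes, the 11 other modifiers or the 8 other deconjugating enzymes passed.

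With IFNg and an inhibitor, TRIM25 fell and NUB1 did not. TRIM25 was at 112, 104 and 112 CPM with ABBV-075 (-0.85, adjusted p = 2.4e-08), and it changed by -0.41 (adjusted p = 0.000768) and -0.44 (adjusted p = 0.000467) with ABBV-744 at 50 and 500 nM. ARIH1, the other ISG15 ligase of the list, rose by 0.73, 0.42 and 0.48. NUB1 differed by 0.09 (adjusted p = 0.654) with ABBV-075, rose by 0.38 (adjusted p = 0.042) with ABBV-744 at 50 nM and differed by 0.22 (adjusted p = 0.262) at 500 nM.

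Over the whole list, 12 genes rose and 18 fell with ABBV-075 in cells given IFNg, which is 24.5% and 36.7%; 16 and 17 moved with ABBV-744 at 50 nM, which is 32.7% and 34.7%; and 13 and 15 at 500 nM, which is 26.5% and 30.6%. Of all genes, 26.2% rose and 27.3% fell with ABBV-075, 24.2% and 22.4% with ABBV-744 at 50 nM, and 21.1% and 20.2% at 500 nM. The counts of the separate lists that follow are to be read beside the same shares. The median log2 changes were -0.17, -0.10 and -0.11, where those of all genes were -0.00, -0.04 and -0.02. Listed for ABBV-075 and then for ABBV-744 at 50 and 500 nM, the other activating enzymes had 2, 4 and 4 genes higher and 1 lower each time, and the one lower was UBA1, which serves ubiquitin, at -1.18, -1.39 and -1.24. Of the 11 conjugating enzymes 1, 3 and 1 rose and 7, 5 and 5 fell. Among conjugating enzymes UFC1, of the UFM1 pathway, changed by -1.11 with ABBV-075, and UBE2M, of the NEDD8 pathway, by -0.78, -0.74 and -0.87. UBE2Z, the partner of UBA6 for FAT10, fell by 0.62 with ABBV-744 at 50 nM. Of the 4 other HERC genes 3, 1 and 2 rose and none fell, with HERC1 at 0.91 for ABBV-075. Of the deconjugating enzymes 2, 3 and 2 rose and 4, 4 and 3 fell, and of the other modifiers 3 rose each time and 5, 3 and 2 fell. USP16 rose in the same 3 comparisons by 1.27, 1.15 and 1.18, and the modifier UFM1 by 0.91, 1.20 and 0.98. The group means of USP16 ran close to those of UBA6 (root-mean-square difference of centred log2 CPM 0.0983). The libraries of IFNg with an inhibitor carried the shift of low-GC genes given above. The part of GC content in the changes of the listed genes was not tested, with or without IFNg. Of the 5 FAT10 partners none passed with ABBV-075, and with ABBV-744 1 and 0 rose and 3 and 3 fell, where SQSTM1, a receptor for ubiquitin-marked cargo, changed by -0.64 and -0.57.

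Without IFNg, ABBV-075 raised 11 and lowered 14 of the 49 genes, which is 22.4% and 28.6%, ABBV-744 raised 1 and lowered 6 at 50 nM, and it raised 1 and lowered 4 at 500 nM. For ABBV-744 these are 2.04% and 12.2% at 50 nM and 2.04% and 8.16% at 500 nM. Of all genes 25% rose and 22.3% fell with ABBV-075, 6.12% and 6.66% with ABBV-744 at 50 nM, and 5.74% and 5.64% at 500 nM. UFC1 and UBE2M fell with ABBV-075 by 1.06 and 0.81, and HERC1 rose by 1.03. SQSTM1 rose with ABBV-744 by 0.62 and 0.52. Genes with many near-identical copies, such as RPS27A and SUMO2, are uncertain, since reads that align to several places were left out.

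The genes whose group means ran closest to each of the leading members were found by the root-mean-square difference of centred log2 CPM over the 8 groups. For UBD they were APOL6 (0.258), BATF2 (0.28) and IFIT3 (0.346), and for UBE2L6 they were APOL3 (0.239), TGM2 (0.249) and BATF2 (0.266). UBD and UBE2L6 differed from each other by 0.391. For ISG15 the closest were RNF213 (0.114), VAMP5 (0.143) and B2M (0.212), and for USP18 they were APOBEC3C (0.131), CEACAM1 (0.139) and NRP1 (0.158). The difference between ISG15 and UBD was 1.25. These are descriptions over 8 points that share library depth and GC shifts, and they carry no test.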

How the data were processed

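Total RNA of HepG2 cells was depleted of ribosomal RNA and sequenced from directional libraries on an Illumina HiSeq2500. Per the paper's methods and the labels, the authors trimmed reads with Trimmomatic 0.33 and aligned them to GRCh38 with STAR 2.7.1, which gave the deposited counts: whole reads per gene, not normalized, with columns for both strands. Column 4 was used, which held 98.3 to 98.5% of the reads on genes, and rows that name no gene were left out. Of all reads of a library, 56 to 69.4% were listed as aligning to several places and entered no gene.

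The counts were fitted with edgeR 4.0.16 in R 4.3.3, with all 24 libraries in 1 quasi-likelihood model of 8 groups, TMM scaling and filterByExpr, and 17 contrasts were tested with Benjamini-Hochberg adjustment over 11676 genes. The study's own tool, DESeq2 (here 1.42.0), was an alternative. CPM were computed from TMM library sizes with no pseudocount, and per kilobase of the canonical transcript of GENCODE release 44, to which 23161 symbols matched directly and 1427 through a synonym. Intervals of log2 differences are 95% intervals from the fit and are not adjusted for the number of genes. Counting intervals are exact and cover counting error only. On simulated counts with 50, 49, 50 and 50 genes changed by -2, -1, 1 and 2 on the log2 scale, the fit of IFNg against DMSO recovered 96%, 71.4%, 92% and 100%, and it called 8 of 11237 unchanged genes. The simulated counts held no inhibitor effect and no GC trend, so these rates do not cover the shifts described above.

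The 8 genes were described in every comparison, and from each other list at most the 2 called genes with the largest change were named, with the 3 genes closest to UBD, ISG15, UBE2L6 and USP18. The members and lists were chosen with earlier results of these data known. Scaling, filters, strand, a replicate block and left-out libraries were varied, and corrections for GC content and transcript length (a lowess curve per library, span 0.3) were added after seeing the data. Libraries of other compounds in the study were not analysed here. No pair of replicates agreed within sampling noise.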

Additional observations from a re-analysis of the deposited data

Results flagged for a closer look

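The response to IFNg differed with ABBV-744 by the interaction test for 3 of the 7 genes, 2 of them higher and 1 lower, where 24% of all genes were higher and 22.4% lower at 50 nM and 15.9% and 12.5% at 500 nM. For UBA6 the response was larger by 1.65 on the log2 scale at 50 nM (adjusted p = 0.000138) and by 1.20 at 500 nM (adjusted p = 0.00471). After the GC correction these were 0.26 (adjusted p = 0.256) and 0.16 (adjusted p = 0.559), and both calls were lost. For HERC6 it was larger by 2.55 (adjusted p = 0.0106) and 3.27 (adjusted p = 0.00531), against ABBV-744 groups of 3 and 2 counts in all, so that these fitted values depend on the prior count. For UBE2L6 it was smaller, with interactions of -0.94 (adjusted p = 0.00041) and -0.76 (adjusted p = 0.006), which were -0.48 (adjusted p = 0.0279) and -0.39 (adjusted p = 0.113) after the GC correction.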

How the results depend on the processing

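Of 2025 values of single genes under the alternatives, 1889 kept their direction and side of the threshold, 65 lost the call, 23 gained it and 48 changed sign, of which 0 passed the test in either fit. The counts of the 7 genes called moved by over 1.5 times as follows (value as reported in brackets), and the cause was not tested. With the GC correction there were 2 higher with ABBV-075 against DMSO (1), 0 lower with ABBV-744 at 50 nM (1), 2 higher with IFNg and ABBV-075 against IFNg (1), and 0 higher (1) and 2 lower (4) with IFNg and ABBV-744 at 50 nM. It also gave 1 higher in either interaction with ABBV-744 (2), 0 lower in that at 500 nM (1), 1 higher with ABBV-075 against ABBV-744 at 50 nM (2), 0 higher with IFNg in that comparison (1), and 1 lower at 500 against 50 nM (0). With the length correction there were 2 higher with IFNg and ABBV-075 against IFNg (1), 2 lower with IFNg and ABBV-744 at 50 nM (4) and 1 higher with ABBV-075 against ABBV-744 (2). Library size alone gave 2 lower with IFNg and ABBV-744 at 50 nM (4) and 0 higher with ABBV-075 against ABBV-744 in IFNg (1). RLE scaling and no filter each gave 2 lower with ABBV-744 at 50 nM (1), and no filter 1 higher with ABBV-075 against ABBV-744 (2). A mean of at least 10 counts gave 2 lower in the interaction at 50 nM (1). With only the groups compared there were 1 lower with ABBV-744 at 500 nM (2), 2 lower in the interaction at 50 nM (1), 1 higher with ABBV-075 against ABBV-744 (2) and 1 lower at 500 against 50 nM with IFNg (0). DESeq2 gave 1 lower with ABBV-744 at 500 nM (2), 1 higher with ABBV-075 against ABBV-744 (2) and 1 lower at 500 against 50 nM with IFNg (0). In the 500 against 50 nM comparisons the gene gained was UBD each time.

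Smaller moves were 3 lower with ABBV-744 at 500 nM (2; GC correction) and 6 (GC correction) or 5 (length correction, no filter) higher for IFNg with ABBV-075 present (4). The length correction gave 3 higher in both interactions with ABBV-744 (2). DESeq2 and no filter each gave 3 lower with IFNg and ABBV-744 at 50 nM (4). For IFNg with ABBV-744 at 500 nM present 5 were higher (6) with no filter, a mean of at least 10 counts, only the groups compared or DESeq2. For ABBV-075 against ABBV-744 3 were lower (4) with library size alone, no filter, the GC correction, only the groups compared or DESeq2.

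The changes of sign concern values that passed neither as reported nor in the fit where the sign changed. In other fits the interaction at 50 nM did pass for ISG15, among them with only the groups compared (-0.51, adjusted p = 0.00932). For UBD it passed with the length correction (0.37, adjusted p = 0.0373). With the GC correction they were 0.13 for UBA6 with ABBV-744 at 500 nM, 0.10 for ISG15 with IFNg and ABBV-744 at either dose, 0.32 for UBA7 with IFNg when ABBV-744 at 50 nM was present, and 0.06 for the ISG15 interaction at 500 nM. In the interaction at 50 nM they were -0.22 for UBD, 0.08 for ISG15, 0.18 for UBA7 and 0.09 for USP18. For ABBV-075 against ABBV-744 it gave 0.27 for ISG15, and with IFNg 0.18 for UBA6 and 0.03 for HERC6. At 500 against 50 nM it gave 0.02 for ISG15 and for UBA7, and with IFNg 0.06 for UBA6. With the length correction the values were 0.08 for ISG15 with IFNg and ABBV-744 at 500 nM, 0.00 and 0.03 for the interactions of ISG15 with ABBV-075 and of USP18 with ABBV-744 at 50 nM, 0.15 for ISG15 with ABBV-075 against ABBV-744, and 0.04 for UBA6 in that comparison with IFNg, which was 0.02 with only the groups compared. With library size alone they were 0.02 for the ISG15 interaction with ABBV-075 and 0.00 for USP18 in the interaction at 50 nM and at 500 against 50 nM.

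With 1 library left out, values that changed sign ranged from -0.95 to 0.20 for HERC6 with ABBV-075, -0.22 to 0.08 for UBE2L6 with ABBV-744 at 50 nM and -0.26 to 0.18 for UBA6 at 500 nM. For UBA7 with IFNg they ranged from -0.10 to 0.24 with ABBV-075 present and from -0.38 to 0.04 with ABBV-744 at 50 nM. The interactions with ABBV-075 ranged from -0.15 to 0.17 for ISG15, -0.00 to 0.60 for UBA6 and -0.32 to 0.01 for UBA7. For ABBV-075 against ABBV-744 the ranges were -0.25 to 0.00 for ISG15 and, with IFNg, -0.10 to 0.03 for UBA6. At 500 against 50 nM they were -0.23 to 0.02 for ISG15, -0.26 to 0.10 for UBA7 and -0.08 to 0.03 for USP18, and with IFNg -0.19 to 0.00 for UBA6 and -0.10 to 0.35 for HERC6.

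Leaving out 1 library gave 4 to 5 higher with IFNg, 0 to 1 lower with ABBV-744 at 50 nM and 1 to 2 lower at 500 nM. In cells given IFNg it gave 1 to 2 higher with ABBV-075, 1 to 4 lower with ABBV-744 at 50 nM and 1 to 2 higher at 500 nM. For IFNg it gave 4 to 5 higher with ABBV-075 present and 5 to 6 with ABBV-744 at 500 nM, and 1 to 2 lower in the interaction at 50 nM. For ABBV-075 against ABBV-744 it gave 1 to 2 higher and 3 to 4 lower, and 0 to 1 higher with IFNg.

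Whether replicate numbers pair the samples was not settled. Deviations of same-numbered libraries correlated with a median r of 0.00635, above 0.1 in 24 of 84 pairs. For different-numbered libraries the median r was -0.00107, and r was above 0.1 in 29 of 168 pairs. A replicate block gave 2 lower in the interaction of IFNg and ABBV-744 at 50 nM (1), through ISG15 (adjusted p = 0.0464), and changed no other call of the 7 genes.

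Over all genes, the GC correction reduced the interaction calls at 50 nM from 2808 higher and 2619 lower to 948 and 1015, and at 500 nM from 1852 and 1462 to 642 and 800. It reduced the calls of IFNg with ABBV-744 at 50 nM present from 3402 and 3356 to 1747 and 1772. It moved the rises with IFNg and ABBV-744 at 50 nM relative to IFNg from 2827 to 1620, the rises of IFNg with ABBV-744 at 500 nM present from 2547 to 1437, and the falls with ABBV-744 at 500 nM from 658 to 1032. The falls with IFNg, 22 as reported, were 71 with it, 38 with library size alone and 78 with only the groups compared. The calls of IFNg with ABBV-075 present, 216 and 135, were 111 and 4 with only the groups compared, and the falls were 206 with the GC correction and 211 with library size alone. The rises with ABBV-744 at 50 and 500 nM, 715 and 670, were 438 and 446 by DESeq2 and 404 and 441 with library size alone, which also gave 1576 falls in the interaction at 50 nM, where it moved the median of all genes from -0.118 to 0.048 on the log2 scale. Without 1 library these comparisons moved further: with ABBV-744 at 50 nM the rises and falls, 715 and 778, were 226 and 193 without its replicate 2, 448 and 481 without its replicate 3, 240 and 279 without DMSO replicate 2, and 278 and 285 without DMSO replicate 3. At 500 nM, 670 and 658 became 329 and 362 without its replicate 2, 408 and 370 without its replicate 3, 337 and 378 without DMSO replicate 2, and 364 and 382 without DMSO replicate 3. The shares of all genes given beside the members for ABBV-744 alone rest on these counts. For IFNg with ABBV-075 present the counts were 368 and 383 without ABBV-075 replicate 1, and the falls were 59 to 83 without ABBV-075 replicate 2 or 3 or replicate 2 or 3 of IFNg with ABBV-075. The 22 falls with IFNg were 11 or 12 without replicate 2 or 3 of either group, and the 1259 rises with ABBV-075 against ABBV-744 in IFNg were 837 without replicate 3 of IFNg with ABBV-075. Where 9 genes or fewer were called, the largest counts in a fit of all replicates were 155 higher and 32 lower (500 against 50 nM with IFNg, only the groups compared), 10 higher without the filter and 30 lower with the GC correction (the same without IFNg), and 27 and 31 (interaction with ABBV-075, no filter). The last of these was 34 and 117 without ABBV-075 replicate 1. HERC5 and HERC6 have too few reads for firm statements at this depth.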
